A study of Mus musculus with 9 samples.

Results

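The genes examined here are 52 neighbours on mouse chromosome 16, in chromosome order from Rwdd2b to Hmgn1, out of 18193 genes measured on the arrays. The members were chosen by how single tumours deviated from the others on these same arrays, so the differences between a tumour and the other tumours are given as a description, with no test. Each gene is represented by 1 probe set, the one with the highest mean over all 9 arrays among those that name only that gene. The study measured RNA in 5 hepatocellular carcinomas titled triple knockout (TKO_HCC) and in 4 normal livers. By the genotype label the tumours carried RbΔ/Δ, p130Δ/Δ and p107+/-, and p107+/- is not a full knockout as the titles have it. They were dissected 4 months after the mice had received the adenovirus Ad-Cre by injection into the spleen. The livers were those of adult wild type mice without tumours. In both groups Trizol RNA went through 2 rounds of amplification with a RiboAmp kit before hybridisation. The mutations, the virus and the presence of a tumour all separate the same samples and cannot be told apart. No label states that each sample is a different animal, and the p-values therefore describe only the variation among these samples, which could be technical.

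The stretch from Rwdd2b to Hmgn1 is the part of mouse chromosome 16 that matches much of the human chromosome whose trisomy causes Down syndrome, and mouse models of that condition carry much of it in extra copy. Its genes are of many kinds. They include the receptor chains for interferons and interleukin 10, the superoxide dismutase Sod1, the carbonyl reductases Cbr1 and Cbr3, the chromatin assembly factor subunit Chaf1b, the kinase Dyrk1a and the transcription factors Ets2, Runx1, Olig1 and Olig2. Lying side by side does not by itself give genes a shared function.

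In these data, 1 tumour stood apart over the stretch. Tumour 3 was at least 25% above the mean of the other 4 tumours (a log2 difference of 0.322, called the fold mark here) for 36 of the 52 genes, where 14.4% of all genes were. It was below that mean by the same log2 difference for 0 of them, where 10.2% of all genes were. Its median difference over the 52 genes was 1.14 on the log2 scale, against 0.0 over all genes. It was at least 2-fold above the other tumours for 28 members, where 3.34% of all genes were, and at least 4-fold for 15, where 0.649% were. It was the highest of the 5 tumours for 34 members (19.5% of all genes) and above all 8 other arrays for 33 (11.7%). Cbr3 and Cbr1 had the rank 1 and 5 of all genes by the size of this difference.

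The promoters of 4 members are shown because these genes carry the pattern in different settings. Cbr1 and Cbr3 are near neighbours with the 2 largest differences, Slc5a3 and Mrps6 begin 14 bases apart, and Sod1 lies near the beginning of the shifted stretch. Each sequence holds the 250 bases before the annotated start, from RefSeq on GRCm38.p6, plus strand. Capitals mark CG pairs, the sites of DNA methylation, which was not measured here.
Cbr1 (chr16:93607587-93607836): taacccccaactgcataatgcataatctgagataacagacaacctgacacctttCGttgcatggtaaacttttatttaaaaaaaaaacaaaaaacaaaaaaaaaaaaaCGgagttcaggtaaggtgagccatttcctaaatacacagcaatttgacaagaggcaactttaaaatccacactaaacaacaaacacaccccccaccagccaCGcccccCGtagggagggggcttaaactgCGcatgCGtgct
Cbr3 (chr16:93682969-93683218): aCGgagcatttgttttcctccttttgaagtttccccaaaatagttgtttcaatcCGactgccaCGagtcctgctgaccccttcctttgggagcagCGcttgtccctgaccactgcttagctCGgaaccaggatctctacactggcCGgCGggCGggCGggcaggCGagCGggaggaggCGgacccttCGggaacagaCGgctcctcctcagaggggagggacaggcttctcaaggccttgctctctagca
Sod1 (chr16:90220512-90220761): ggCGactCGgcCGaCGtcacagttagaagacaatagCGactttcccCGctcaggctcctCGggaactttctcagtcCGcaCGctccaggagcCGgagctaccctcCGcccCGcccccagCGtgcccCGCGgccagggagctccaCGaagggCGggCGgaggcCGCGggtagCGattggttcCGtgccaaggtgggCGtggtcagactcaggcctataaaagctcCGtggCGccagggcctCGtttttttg
Slc5a3 (chr16:92058072-92058321): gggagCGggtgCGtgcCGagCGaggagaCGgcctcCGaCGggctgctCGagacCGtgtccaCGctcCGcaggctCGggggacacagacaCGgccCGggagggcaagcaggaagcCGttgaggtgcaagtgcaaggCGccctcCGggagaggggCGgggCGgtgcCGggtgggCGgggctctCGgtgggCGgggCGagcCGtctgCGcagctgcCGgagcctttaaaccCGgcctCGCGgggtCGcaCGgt
The Cbr1 window held 6 CG pairs and was 41.6% G or C, while that of its neighbour Cbr3 held 14 CG pairs and was 59.6% G or C. The windows of Sod1 and Slc5a3 held 26 and 32 CG pairs, where the median over all promoters of the table was 6. The antioxidant response element, TGACNNNGC, is the site bound by Maf proteins with their partners, among them the member Bach1. Searched on both strands, it was found in 10.2% of the 32851 promoter windows of this length and in 7 of the 44 members that the table lists. It was present 1 time in the Sod1 window, on the minus strand 56 bases before the start, and these letters were not in the other 3 windows shown.

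Cbr3 and Cbr1 encode carbonyl reductases, enzymes that reduce quinones and other carbonyl compounds with NADPH. Cbr3 had a log2 value of 14.21 in tumour 3 and 7.76, 5.81, 8.17 and 7.51 in tumours 1, 2, 4 and 5, against 7.25, 7.0, 7.27 and 6.25 in livers 1 to 4. Tumour 3 was thus alone at the top of the scale, and the remaining 8 arrays lay within the range of a dim to moderate probe set. The difference from the other tumours was 6.90 on the log2 scale, or 119-fold, and that from the livers was 154-fold. Cbr1 had 14.84 in tumour 3 and 10.68, 10.38, 11.54 and 10.86 in the other tumours, against 11.27, 11.2, 11.83 and 11.25 in the livers. Here the other tumours overlapped the livers, with 3 of the 4 below every liver, and tumour 3 was 15.8-fold above the other tumours and 11-fold above the livers. Setd4, a lysine methyltransferase and the neighbour of Cbr1, had 10.59 in tumour 3 and 7.91, 7.26, 8.85 and 7.55 in tumours 1, 2, 4 and 5, against 8.59, 8.72, 9.71 and 8.67 in the livers. The same 3 tumours were below the lowest liver for this gene, and tumour 3 was again above all other arrays.

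Along the chromosome, the difference was not even. The 5 members from Rwdd2b to Grik1 had a median difference of -0.11 in tumour 3 on the log2 scale, with Bach1, a heme-regulated repressor, at 0.68 and the other 4 between -0.25 and -0.03. The next 3 members, Tiam1, Sod1 and Scaf4, had -0.09, 0.94 and 0.73. The 39 members from Hunk to Dyrk1a had a median of 1.55 and a range of -0.28 to 6.90. In these 39, tumour 3 was the highest of the 5 tumours for 30 and above all 8 other arrays for 29, and all 28 members with at least a 2-fold difference lay there. The last 5 members, from Kcnj6 to Hmgn1, had a median of 0.27, and 1 of them, Ets2 at 0.47, was past the fold mark. The limits of these 4 groups of neighbours were set after their values were seen.

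**Figure D1:**
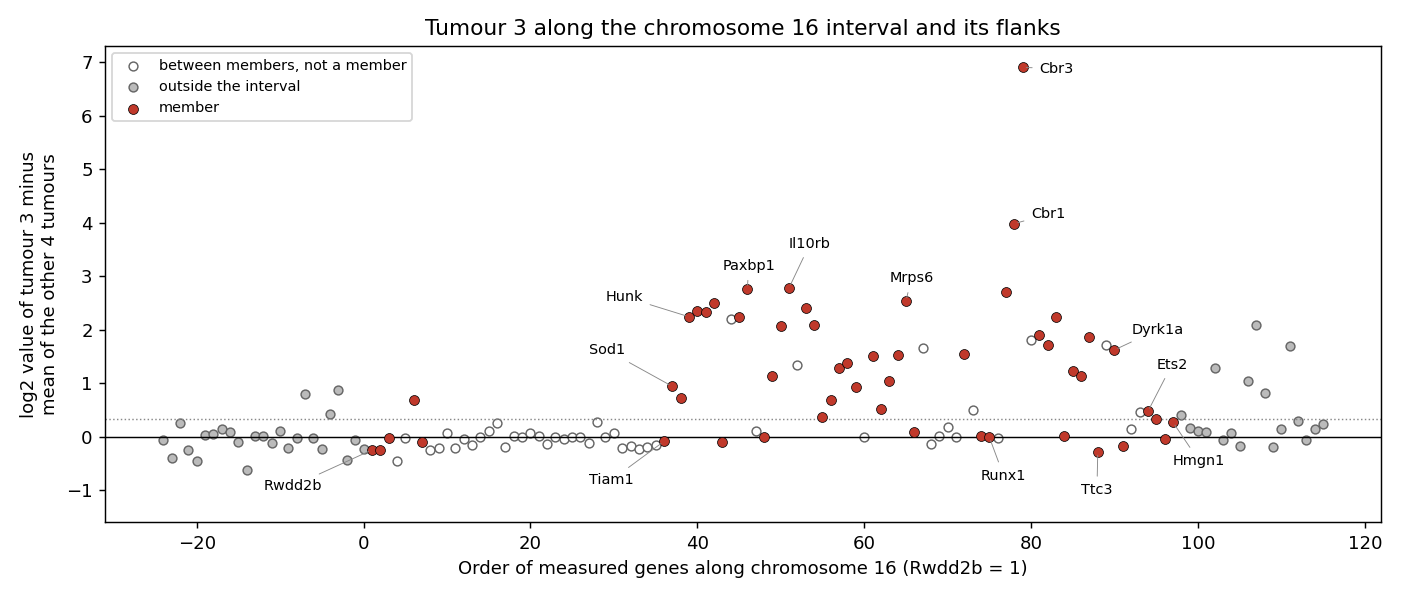
Difference in log2 value between tumour 3 and the mean of the other 4 tumours (vertical axis) for measured genes in their order along chromosome 16 (horizontal axis, Rwdd2b as 1), with members filled in red, other genes between them open and genes outside the interval grey; the dotted line is the fold mark of 0.322. The members from Hunk to Dyrk1a have a median of 1.55 and reach 6.90 at Cbr3, while those from Rwdd2b to Grik1 have a median of -0.11.

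Between the first and the last member lay 45 further measured genes that are not on the list. Of these, 7 were higher in tumour 3 by at least the fold mark, or 15.6% beside 14.4% of all genes, and their median difference was 0.0. The 13 of them between Hunk and Dyrk1a held 6 past the mark and 7 that were not, with a median of 0.18, and the remaining 32 held 1, with a median of -0.02. The 5 with at least a 2-fold difference were Cfap298 at 2.19, Dop1b at 1.80, Vps26c at 1.72, Smim11 at 1.65 and A930006K02Rik at 1.33 on the log2 scale, all of them between Hunk and Dyrk1a. Many of the 45, among them the Krtap genes, were dim, and dim probe sets can show only part of a difference. Of the 7 not past the mark between Hunk and Dyrk1a, all but 1810053B23Rik were under 6.5 on every array. A930006K02Rik and 2410124H12Rik, both past it, were under 6.5 in every liver.

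Genes at both ends of the list were read beside their neighbours. Rwdd2b, the first member, had 8.15 in tumour 3 and 8.20, 8.33, 8.86 and 8.22 in tumours 1, 2, 4 and 5, against 8.50, 8.62, 8.68 and 8.55 in the livers, so its highest array was tumour 4. Of the 5 measured genes before it, Adamts1 and Adamts5, which encode extracellular proteases, were at 0.43 and 0.88 in tumour 3, and Gm32461, N6amt1 and Ltn1 were at -0.43, -0.07 and -0.23. Hmgn1, the last member, encodes a nucleosome-binding protein and was at 0.27. Beyond it, Get1 was at 0.40, Lca5l at 0.17, Sh3bgr at 0.11, B3galt5 at 0.08 and Igsf5 at 1.29. Over the 478 measured genes of chromosome 16 before the list, the tumour 3 median was -0.02, and 56 of them, or 11.7%, were higher by the fold mark or more. Over the 18 after it the median was 0.16, and 6 of them, or 33.3%, were past the mark, beside 14.4% of all genes. At least 2-fold higher were 4 of these 18, the interferon-induced GTPase gene Mx1 at 2.08, Ripk4 at 1.70, Igsf5 at 1.29 and Bace2 at 1.03.

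The large differences of tumour 3 were also counted over the genome. The list was chosen by such deviations, so its share restates that choice. In all, 118 genes were at least 4-fold above the other tumours. The 15 members among them made up 12.7% of those genes and 28.8% of the list. Of the rest, 1 lay between members, 3 lay elsewhere on chromosome 16, and no other chromosome held more than 10. These counts were not set against the number of measured genes on each chromosome. The tumour 3 medians of the 19 chromosomes compared lay between -0.07 and 0.07, and that of chromosome 16 as a whole was -0.01.

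The 4 receptor genes of the stretch were all higher in tumour 3 than on any other array. Ifnar1 and Ifnar2 encode the chains of the type I interferon receptor, Ifngr2 a chain of the interferon gamma receptor, and Il10rb a chain shared by the receptors for interleukin 10, interleukin 22 and type III interferons. Il10rb had 12.98 in tumour 3 and 10.36, 9.90, 10.37 and 10.19 in tumours 1, 2, 4 and 5, against 8.79, 8.83, 8.87 and 8.24 in the livers. Ifnar1 had 11.97 in tumour 3 and 9.55, 9.34, 9.70 and 9.68 in the other tumours, against 9.06, 9.27, 8.93 and 9.07 in the livers. For both genes the lowest tumour was above the highest liver, and tumour 3 was 6.86-fold and 5.29-fold above the other tumours. Ifnar2 had 13.75 in tumour 3 and 11.54, 11.28, 12.28 and 11.61 in the other tumours, against 11.39, 11.38, 11.12 and 11.42 in the livers. Ifngr2 had 11.09 in tumour 3 and 8.84, 8.30, 9.51 and 9.39 in the other tumours, against 8.27, 8.07, 8.11 and 8.25 in the livers. Tumour 3 was 4.20-fold and 4.23-fold above the other tumours for this pair, and the tumours and livers overlapped for Ifnar2 but not for Ifngr2.

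Groups were compared with limma (2-sided, Benjamini-Hochberg adjustment over all genes), by which 16.1% of all genes rose in tumours and 17.4% fell. The arrays were also centred on 13 housekeeping genes, by the array's median over them and, chosen after seeing the data, by its mean over them. Il10rb rose by 2.08 on the log2 scale in tumours (SE 0.57, limma adjusted p = 0.0213). That call was lost when liver 1 or liver 4 was left out, with an adjusted p of up to 0.0563. Ifnar1, Ifnar2 and Ifngr2 were 1.96-fold, 1.70-fold and 2.38-fold higher in tumours (SE 0.49, 0.45 and 0.47 on the log2 scale) and did not pass with all arrays. Without tumour 3, Ifnar1 rose by 0.49 (limma adjusted p = 0.0141), Ifngr2 by 0.84 (limma adjusted p = 0.0366) and Il10rb by 1.52 (limma adjusted p = 0.000465), while Ifnar2, at 0.35, did not pass. The fit without tumour 3 was made on the deposited scaling only, so these calls were not checked under the other centrings. Another probe set of Ifngr2 of moderate brightness was at 0.12 in tumour 3, in contrast to the 2.08 of the one used. Its difference between all 5 tumours and the livers was 0.08.

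Genes that work with these receptors but lie elsewhere were read on the same arrays. Of 16 measured genes of interferon and interleukin 10 receptor signalling, 4 rose in tumours, and 0 fell, while 6 fell centred on the 75th percentile and 9 centred on the housekeeping mean. The median difference of tumour 3 from the other tumours over the 16 was 0.03. By the fold mark 4 were higher in tumour 3, Ifngr1 (0.85), Il10ra (0.8), Socs3 (0.64) and Usp18 (0.53), and 1 was lower, Il22ra1 (-0.46). Ifngr1 and Il10ra were above every other array there. Those that rose between the groups were Il22ra1 (1.32, limma adjusted p = 0.0004), Usp18 (2.34), Ifngr1 (1.28) and Ifnlr1 (0.72), the last of which did not pass on the housekeeping mean. Among 14 interferon-stimulated genes 3 rose, Oas1a by 2.56 (limma adjusted p = 0.00185), Ifit2 by 1.63 and Mx1 by 1.65, and 0 fell, with Ifit2 and Mx1 not passing on the housekeeping mean. Their mean log2 level was 8.67 in tumour 3 and 8.01, 7.43, 9.33 and 7.86 in tumours 1, 2, 4 and 5, against 7.81, 7.80, 8.16 and 7.37 in the livers. Tumour 4 was the highest tumour for 10 of the 14 and tumour 3 for 3, so the order of the tumours for these genes was not that of the receptors. Mx1 and Cxcl10 were among the exceptions, at 8.45 and 10.77 in tumour 3, above every other array.

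**Figure D2:**
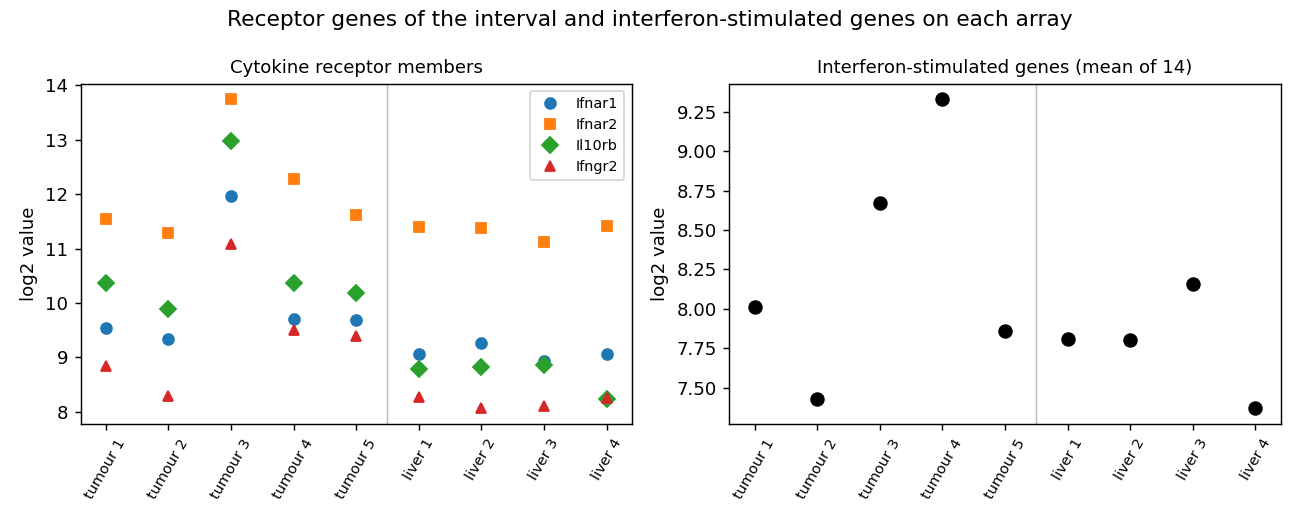
Left, log2 values of Ifnar1, Ifnar2, Il10rb and Ifngr2 on each of the 9 arrays, tumours to the left of the grey line and livers to its right; right, the mean log2 value of 14 interferon-stimulated genes on the same arrays. The receptors are highest in tumour 3 and the mean of the stimulated genes is highest in tumour 4, at 9.33.

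Paxbp1, Urb1 and Mrps6 were among the 12 members with the largest deviations. Paxbp1, which encodes a protein that binds PAX transcription factors, had 12.34 in tumour 3 and 9.39, 9.38, 9.85 and 9.72 in tumours 1, 2, 4 and 5, against 9.07, 8.91, 9.09 and 8.89 in the livers. Urb1, a ribosome biogenesis gene, had 9.60 in tumour 3 and 7.11, 6.75, 7.4 and 7.12 in the other tumours, against 6.04, 6.38, 6.16 and 6.63 in the livers. For both, every tumour was above every liver, with tumour 3 6.77-fold and 5.67-fold above the other tumours. Mrps6, a protein of the small subunit of the mitochondrial ribosome, had 12.40 in tumour 3 and 10.14, 9.53, 10.32 and 9.51 in the other tumours, against 9.05, 9.26, 9.32 and 9.54 in the livers. Its difference of 2.53 on the log2 scale stood beside 1.53 for Slc5a3, the myo-inositol transporter gene that begins 14 bases from it. Son, a splicing cofactor, was at 1.37, Scaf4, which binds RNA polymerase II, at 0.73, and Synj1, a phosphoinositide phosphatase gene between Urb1 and Paxbp1, at 2.23.

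Some enzymes and mitochondrial proteins of the stretch are given by their differences, named after their values were seen. Gart, a purine synthesis enzyme, was at 1.29 in tumour 3 relative to the other tumours, the ATP synthase subunit Atp5o at 1.03, the holocarboxylase synthetase Hlcs at 1.22, the GPI anchor gene Pigp at 1.87 and the quinone reductase relative Cryzl1 at 1.5, all on the log2 scale. For genes of the same pathways outside the stretch, the tumour 3 median was 0.12 over 7 purine synthesis genes and -0.09 over 5 GPI anchor genes. Over 7 other ATP synthase subunits it was -0.21. That is the value of Atp5j, a subunit gene that lies on chromosome 16 before the stretch. Sod1 was at 0.94 by its brightest probe set, which was near the top of the scale on all arrays (14.77 in tumour 3 and 13.71 to 14.14 in the other tumours, against 13.99 to 14.06 in the livers). A second probe set of similar brightness gave 1.46, and of 2 with moderate values 1 gave 1.78 and 1 gave 0.24. Of 5 other superoxide and peroxide enzymes 4 fell in tumours, Sod3 by 1.05 (limma adjusted p = 0.00119), but 0 passed when centred on the housekeeping median. Their tumour 3 median was -0.61.

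Bach1, which lies before the shifted stretch, had 10.45 in tumour 3 and 9.27, 9.47, 10.36 and 9.99 in tumours 1, 2, 4 and 5, against 10.45, 10.32, 9.94 and 10.27 in the livers. By this probe set tumours 3 and 4 were level with the livers, and tumours 1 and 2 lay below all of them. The relation to the livers differed for another Bach1 probe set with a mean of 6.68. There tumours 3 and 4, at 7.54 and 7.46, were above every liver (5.94 to 6.75). Tumours 1 and 2, at 6.69 and 6.27, lay within the liver range. Of 8 partners and targets of Bach1, tumour 3 was the highest tumour for 5, and the median difference was 0.52. By the fold mark 4 of the 8 were higher in tumour 3 and 1 was lower, the small Maf gene Mafg at -0.5. The largest differences were those of the quinone reductase gene Nqo1 at 2.66, the heme oxygenase gene Hmox1 at 1.58 and the small Maf gene Maff at 1.53. Between the groups only Maff passed among the 8, at 1.29 (limma adjusted p = 0.0328), and not when centred on the housekeeping mean (limma adjusted p = 0.0794).

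Chaf1b, Mis18a and Donson were higher in every tumour than in any liver, with tumour 3 the highest. Chaf1b, a subunit of the factor that places histones behind the replication fork, had 11.58 in tumour 3 and 9.87, 9.58, 10.18 and 9.86 in tumours 1, 2, 4 and 5, against 6.34, 6.33, 5.77 and 6.63 in the livers. Mis18a, which primes centromeres for the histone CENP-A, had 12.55 in tumour 3 and 10.11, 9.72, 10.56 and 10.42 in the other tumours, against 7.31, 7.21, 7.52 and 7.09 in the livers. Donson, a replication fork gene, had 10.59 in tumour 3 and 9.64, 9.31, 9.59 and 10.07 in the other tumours, against 7.38, 7.25, 7.66 and 7.29 in the livers. Partners of these genes elsewhere in the genome, such as Mcm2, Pcna and Cenpa, all rose in tumours (7 of 7, median 2.89 on the log2 scale, and 6 of 7 on the 75th percentile or the housekeeping mean), but their tumour 3 median was -0.17.

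Hunk and Mrap lie on either side of Mis18a. The kinase gene Hunk had 11.10 in tumour 3 and 8.88, 8.60, 9.34 and 8.64 in tumours 1, 2, 4 and 5, against 6.74, 6.30, 6.53 and 6.91 in the livers. Mrap, an accessory protein of the melanocortin receptor that responds to ACTH, had 12.04 in tumour 3 and 9.32, 8.69, 10.59 and 10.25 in the other tumours, against 9.83, 10.25, 10.42 and 10.37 in the livers. Hunk kept tumours and livers apart, and Mrap did not, with tumours 1 and 2 below every liver. Tumour 3 was 4.71-fold and 5.03-fold above the other tumours for the pair.

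A minority of members did not share the shift. Between Hunk and Dyrk1a these were Eva1c (-0.11), Olig2 (0.00), the potassium channel subunit gene Kcne2 (0.08), the chloride channel relative Clic6 (0.02), Runx1 (-0.01), Sim2 (0.02) and Ttc3 (-0.28). By the mean over the 9 arrays, Olig2 alone among the 52 was not above the negative control probe sets, whose values reached 4.36. The glutamate receptor gene Grik1 was at or below that value on 5 of the 9 arrays. Of the 11 members with a mean liver level under 6.5, 3 were past the fold mark in tumour 3, against 33 of the 41 with a higher level. Across the 52 members the difference was only weakly related to the liver level (Pearson r 0.13, Spearman rho 0.20, genes that share the same arrays). Runx1, a transcription factor of blood cells, was an exception among the brighter ones, with 7.42 in tumour 3 and 7.4 to 7.45 in the other tumours, against 7.46 to 7.94 in the livers, and its 5 further probe sets were at 0.37 or less.

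Olig1, the neighbour of Olig2, did not follow tumour 3 either in the same way, since its highest array was tumour 4. It had 8.70 in tumour 3, 9.26 in tumour 4 and 7.22, 5.81 and 8.01 in tumours 1, 2 and 5, against 6.43, 6.59, 6.51 and 5.78 in the livers. Ttc3, a ubiquitin ligase gene, depended on the probe set. The one used had 9.80 in tumour 3 and 10.24, 9.98, 10.36 and 9.75 in the other tumours, whereas 3 further probe sets of at least moderate brightness gave differences of 1.77, 1.94 and 2.00, and 3 dimmer ones gave 0.47 to 0.76. The value of -0.28 for Ttc3 is therefore that of 1 probe set, whose type can bind related transcripts. At the fold mark itself, Tmem50b was just inside at 0.36 and the proteasome assembly gene Psmg1 just outside at 0.32, which is under 0.322 before rounding.

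Different probes for the same genes read the same RNA on the same arrays. Since the genes were chosen by such deviations, the counts are a description, and the share over all other probe sets is not given. Besides those used, 85 probe sets named 38 of the members. Of the 50 with a mean log2 value over 6.5, 40 were past the fold mark in tumour 3, and of the 35 dimmer ones, 11 were. Among the 15 members that were at least 2-fold higher and had another such bright probe set, 14 had all of these past the mark, the exception being Ifngr2.

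**Figure D3:**
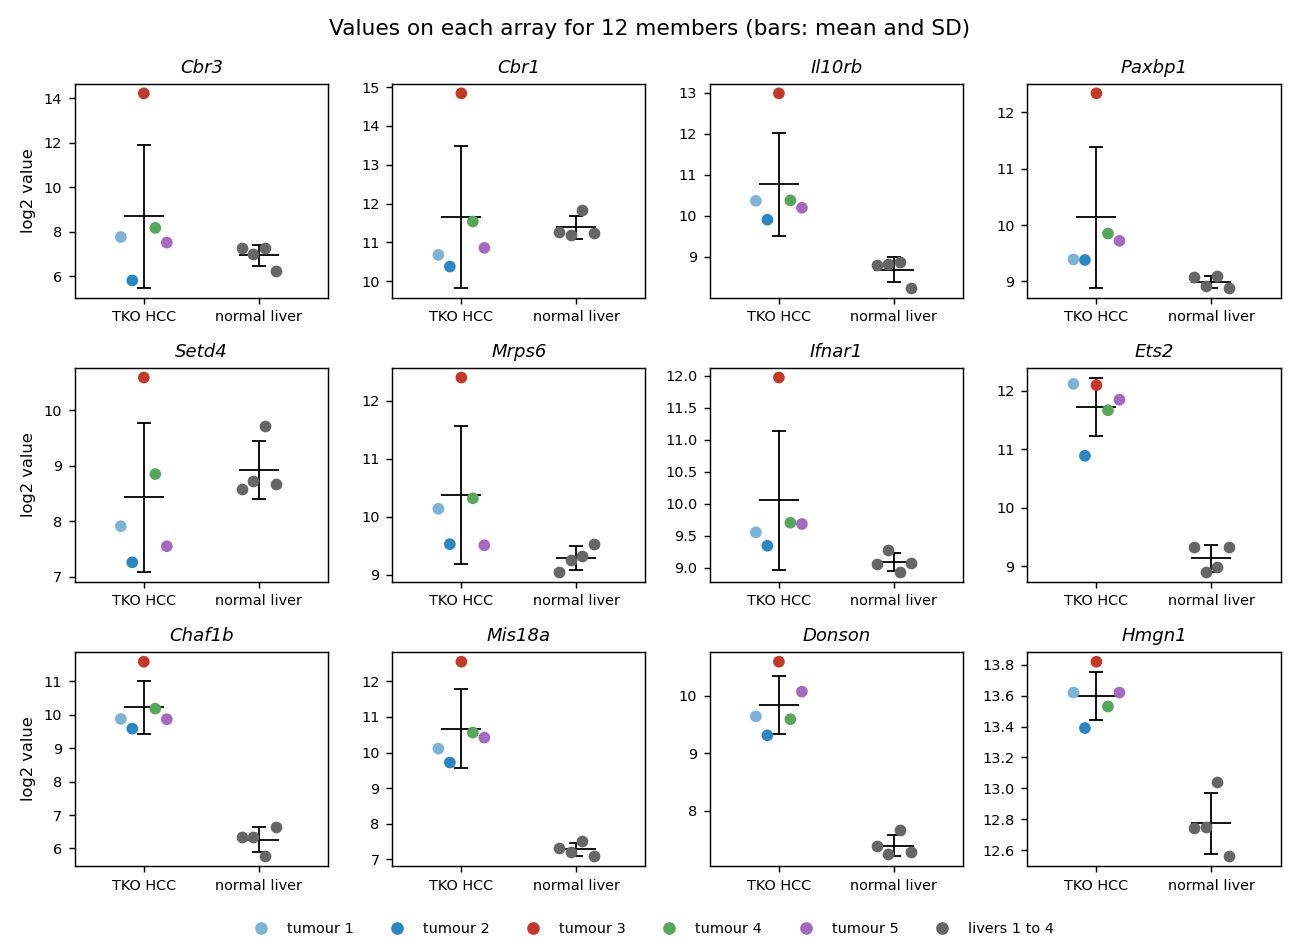
Log2 values of 12 members on each array, TKO HCC on the left and normal liver on the right of each panel, with a horizontal bar for the group mean and whiskers for the SD (n = 5 and 4). Tumour 3 (red) is above every other array for Cbr3, Cbr1, Il10rb, Paxbp1, Setd4, Mrps6 and Ifnar1, whereas for Ets2 it lies at 12.10 among the other tumours.

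The remaining tumours differed less from each other over the stretch. The members' median difference from the mean liver was 0.41, 0.03, 1.65, 0.59 and 0.39 on the log2 scale in tumours 1 to 5, where the medians over all genes lay between -0.09 and -0.07. Tumour 2 was the lowest of the 5 tumours for 35 members, where 24.5% of all genes were lowest in it. It was also low over the 478 genes of chromosome 16 before the list, with a median of -0.17 and 169 lower by the fold mark or more, beside 17.1% of all genes. Tumour 4 had a median of 0.17 over those 478 genes, with 165 higher by the fold mark or more beside 13.7% of all genes. Medians of the 19 other chromosomes reached 0.16 in tumour 4, where chromosome 16 as a whole was at 0.14. In tumour 2 they lay between -0.11 and 0.17, and chromosome 16 as a whole was at -0.17. Tumour 4 was the highest tumour for 3 of the 5 members from Rwdd2b to Grik1 and for 8 of all 52, where 22.5% of all genes were highest in it. With tumour 3 left out of the comparison, the members' median was 0.34 in tumour 4, -0.37 in tumour 2 and 0.01 in both tumour 1 and tumour 5.

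The spread between tumours reflected this. The median SD of a member was 0.622 over the 5 tumours and 0.310 without tumour 3, against 0.171 over the 4 livers. Over all genes the corresponding medians were 0.190, 0.184 and 0.162.

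**Figure D4:**
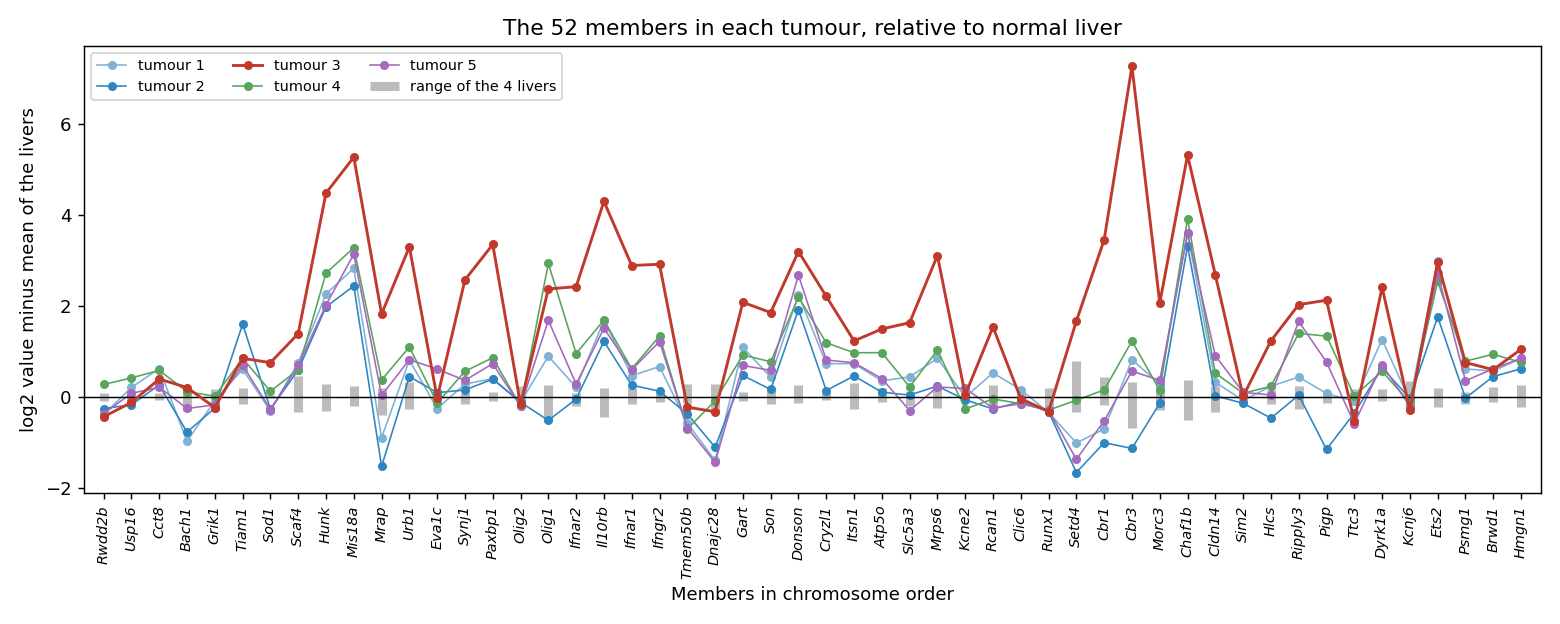
Log2 value of each tumour minus the mean of the 4 livers (vertical axis) for the 52 members in chromosome order (horizontal axis), 1 line per tumour, with grey bars for the range of the livers. Tumour 3, with a median of 1.65, is the highest line for 30 of the 39 members from Hunk to Dyrk1a and lies near the others from Kcnj6 on.

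The same comparison was made for all members. Since tumour 3 took part in the choice of the genes, the comparison is also given without it. With all arrays 16 members rose and 2 fell, beside 16.1% and 17.4% of all genes, which is 33.5% in either direction. Without tumour 3, 21 rose and 2 fell, beside 14.7% and 14.2% of all genes. Leaving out tumour 2 in place of tumour 3 also gave 21 that rose, and leaving out liver 1 gave 10, with the share of all genes not given for either. Of the members that rose, 15 were shared, Psmg1 passed only with tumour 3, and Urb1, Synj1, Paxbp1, Ifnar1, Ifngr2 and Son passed only without it. The median difference was 0.65 on the log2 scale with tumour 3 and 0.39 without, where the median over all genes was -0.08 in both, and the median SE of a member was 0.291 with it and 0.169 without. The lowest tumour was above the highest liver for 21 members (14.0% of all genes), and the highest tumour below the lowest liver for 2 (15.9%). In whole tissue, fewer cells of a type and less RNA per cell cannot be told apart.

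The members with the largest increases were Chaf1b, Mis18a, Hunk, Ets2 and Donson. Chaf1b averaged 10.21 ± 0.79 in tumours and 6.27 ± 0.36 in livers (SD, n = 5 and 4), a rise of 3.95 on the log2 scale (SE 0.38, limma adjusted p = 9.42e-05) that was 3.60 without tumour 3. Mis18a rose by 3.39 (SE 0.49, limma adjusted p = 0.00101) and by 2.92 without tumour 3, and Hunk by 2.69 (SE 0.48, limma adjusted p = 0.00274) and by 2.25 without it. Donson rose by 2.44 (SE 0.24, limma adjusted p = 9.99e-05). Ets2, a transcription factor downstream of Ras signalling, had 12.10 in tumour 3 and 12.12, 10.89, 11.67 and 11.85 in tumours 1, 2, 4 and 5, against 9.33, 8.90, 8.98 and 9.32 in the livers. It rose by 2.59 (SE 0.25, limma adjusted p = 8e-05), with every tumour above every liver, and tumour 3 was not the highest of them.

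Smaller increases were found in other signalling and chromatin members. Tiam1, an exchange factor that activates Rac, had 6.70 in tumour 3 and 6.46, 7.45, 6.70 and 6.55 in tumours 1, 2, 4 and 5, against 5.69, 5.92, 5.75 and 6.05 in the livers, and rose by 0.92 (limma adjusted p = 0.00635). Its highest array was tumour 2. Averaged over its probe sets, of which 2 dim ones were at -0.06 and -0.30, Tiam1 was at 0.19 and did not pass (limma adjusted p = 0.184). Itsn1, an endocytic scaffold, had 9.77 in tumour 3 and 9.27, 9.0, 9.51 and 9.29 in the other tumours, against 8.54, 8.84, 8.50 and 8.28 in the livers. It rose by 0.83 (limma adjusted p = 0.00509). Its other probe sets with a mean over 6.5 were at 0.84, 0.53 and 1.22, but also at -0.17, -0.09 and -0.03. Hmgn1 had 13.82 in tumour 3 and 13.62, 13.39, 13.53 and 13.62 in the other tumours, against 12.74, 12.75, 13.04 and 12.56 in the livers, and rose by 0.82 (limma adjusted p = 0.000883). The groups did not overlap for any of these 3 genes. Brwd1, a chromatin reader gene, had 8.10 in tumour 3 and 8.07, 7.95, 8.44 and 8.12 in the other tumours, against 7.71, 7.41, 7.49 and 7.4 in the livers. It rose by 0.64 (limma adjusted p = 0.00287). Its other probe sets with a mean over 6.5 were at 0.58, 0.11 and -0.11. Cct8, a subunit of the chaperonin CCT, had 11.73 in tumour 3 and 11.96, 11.60, 11.92 and 11.55 in the other tumours, against 11.30, 11.43, 11.27 and 11.35 in the livers, and rose by 0.41 (limma adjusted p = 0.014). Centred on the 75th percentile, Cct8 was at 0.24 (limma adjusted p = 0.0904), and centred on the housekeeping mean it was at -0.09 (limma adjusted p = 0.607). Of the 7 CCT subunits encoded elsewhere, 5 rose, while 1 rose and 2 fell when centred on the housekeeping mean. Cct5 rose by 0.85 (limma adjusted p = 0.00018) and Cct7 by 0.76.

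Scaf4 had 9.19 in tumour 3 and 8.55, 8.39, 8.40 and 8.49 in tumours 1, 2, 4 and 5, against 7.46, 7.61, 7.88 and 8.25 in the livers, and rose by 0.80 (limma adjusted p = 0.0165). It did not pass as the mean of its probe sets (0.45, limma adjusted p = 0.0503) or without the x_at and s_at types (0.63, limma adjusted p = 0.0818). Gart rose by 1.05, Dyrk1a by 1.12, Cryzl1 by 1.02 and Psmg1 by 0.50, with limma adjusted p-values between 0.0197 and 0.0485. The calls of these 5 genes, of Il10rb and of Dnajc28 were lost when 1 array was left out, and the other 11 of the 18 held whichever array was left out, which says nothing of the scaling or the choice of probe set. For Psmg1, Cryzl1 and Dnajc28 at least 7 of the 9 single omissions ended the call, and the adjusted p reached 0.116, 0.103 and 0.126. The list of 7 other purine synthesis genes beside Gart held 2 that rose, Adsl by 1.39 (limma adjusted p = 0.00142) and Pfas by 0.49, while 1 rose and 3 fell when centred on the housekeeping mean.

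The members that fell were Tmem50b, which encodes a membrane protein, and Dnajc28, which encodes a DnaJ domain protein, 2 neighbours between Ifngr2 and Gart. Tmem50b had 8.11 in tumour 3 and 7.76, 7.96, 7.63 and 7.66 in tumours 1, 2, 4 and 5, against 8.19, 8.61, 8.29 and 8.25 in the livers, and fell by 0.51 on the log2 scale (SE 0.13, limma adjusted p = 0.0149). Every tumour was below every liver, with tumour 3 the nearest to the livers. Centred on the housekeeping median, Tmem50b was at -0.13 (limma adjusted p = 0.64). Dnajc28 fell by 0.87 (SE 0.30, limma adjusted p = 0.0498), and its values overlapped between the groups.

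**Figure D5:**
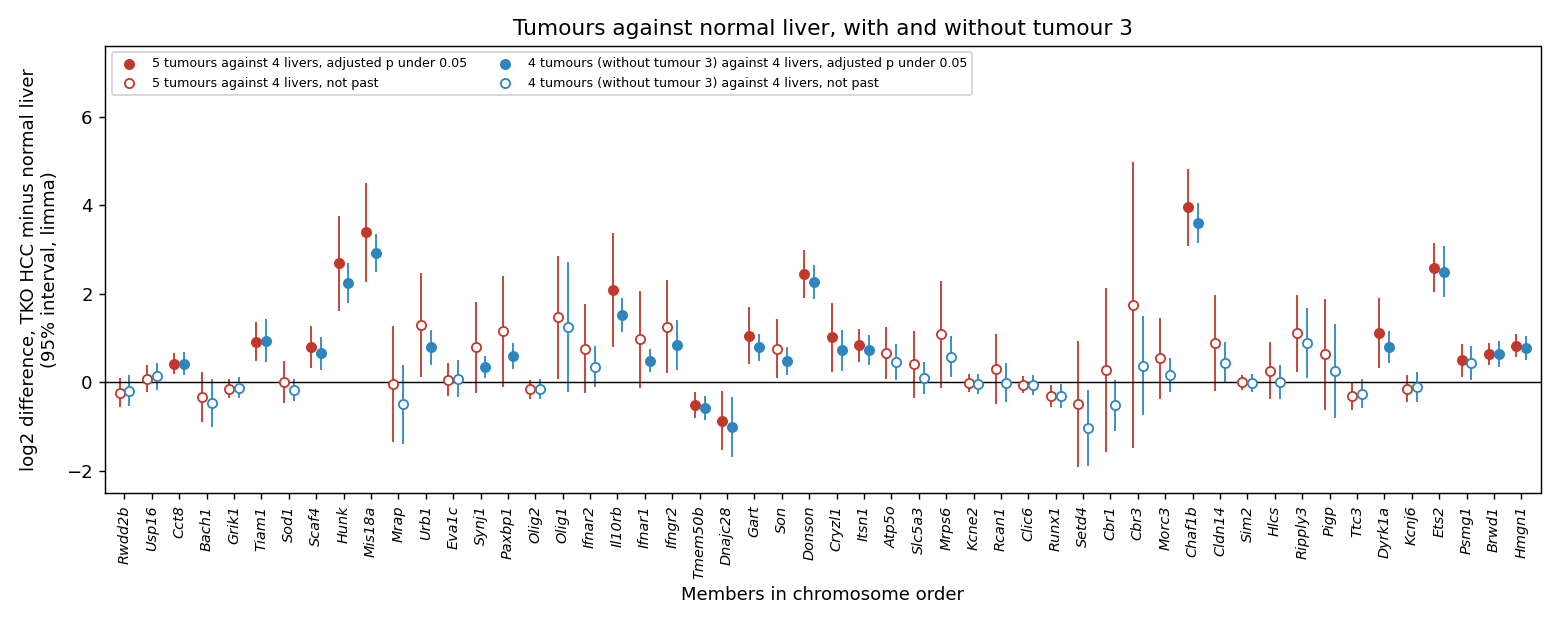
Log2 difference between tumours and livers with its 95% interval (vertical axis) for the 52 members in chromosome order, with all 5 tumours (red) and without tumour 3 (blue); filled points have a limma adjusted p under 0.05. The intervals are narrower without tumour 3 for members such as Cbr3 and Il10rb, and 21 members are higher without it, against 16 with it.

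The scaling of the arrays set a large part of these counts. Of the 13 housekeeping genes, 7 rose in tumours. Their median on an array was lower in tumours by 0.39 (12.41 in tumours, against 12.8 in livers), while their mean was higher by 0.50 (12.28 in tumours, against 11.78 in livers). Centred on that median, 27 members rose and 0 fell, and the median of all genes was 0.31, against -0.08 as deposited. Centred on the mean, 6 rose and 14 fell, with the median of all genes at -0.58. Centred on the 75th percentile of each array, 13 rose and 7 fell, with that median at -0.26. The share of all genes called under each of these centrings is not given. The counts therefore do not set the members apart from other genes. The 6 members that rose under each of these 4 scalings were Hunk, Mis18a, Il10rb, Donson, Chaf1b and Ets2, and 0 fell under each. Tiam1, Scaf4, Itsn1, Brwd1, Hmgn1, Gart, Dyrk1a, Cryzl1, Psmg1 and Cct8 did not pass on the housekeeping mean.

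Markers of other cells were read on the same arrays. Of the macrophage markers, 3 of 5 were higher in tumour 3 by the fold mark or more, Cd68 by 2.10, and 1 was lower, Clec4f at -1.49. The remaining macrophage marker, Marco, was at -0.07. The mean level of the 5 was 8.69 in tumour 3 and between 7.48 and 9.07 over the tumours, against 9.03 to 10.17 in the livers. Of the stellate cell markers 3 of 5 were higher, Col1a1 by 2.36 (mean level of the 5 of 9.02 in tumour 3, 7.80 to 9.09 over the tumours and 9.11 to 9.60 in the livers). Reln, at -0.22, and Lrat, at 0.17, were not past the mark. Of the leukocyte markers 2 of 4 were higher (mean level of 8.06 in tumour 3, 6.83 to 8.10 over the tumours and 7.11 to 7.77 in the livers), and of the endothelial markers 3 of 6 (8.23 in tumour 3, 7.43 to 8.23 over the tumours and 8.19 to 8.50 in the livers). The 7 measured hepatocyte markers had their lowest mean in tumour 3, at 14.24, with 14.24 to 14.63 over the tumours and 14.58 to 14.72 in the livers. Cps1, at 12.83 in tumour 3, carried this, since the mean of the other 6 was 14.48 in tumour 3 and 14.47 in tumour 1. No marker was at or below the negative control probe sets. The part of these cells in the tumour 3 values was not tested.

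For the arrays as a whole, medians lay between 6.22 and 6.27. Of the targeted genes, Rbl2 (p130) had 6.77 to 8.43 in tumours, against 9.44 to 10.02 in livers. Rb1 had 8.76 to 9.38 in tumours, against 7.69 to 8.33 in livers, and Rbl1 (p107) was dim in both. The sources used here do not place these probe sets inside or outside the deleted parts, so the level of Rb1 checks no label. The ratio of 3′ to 5′ probe sets for Actb, a sign of RNA length, was 0.53 on the log2 scale in tumour 3 and 0.53 to 0.72 over the tumours, against 0.91 to 1.00 in the livers. For Gapdh it was -0.24 to -0.18 in tumours, against -0.32 to -0.21 in livers, and the groups overlapped.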

How the data were processed

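RNA of 5 TKO_HCC tumours and 4 normal livers was measured on Affymetrix mouse arrays. The authors deposited 1 log2 value for each probe set and array, computed with RMA according to the submitters' processing notes. No version or setting of RMA, scan batch or genome build is stated in the labels or the file. RMA as commonly run sets all arrays to 1 distribution and compresses differences of dim and very bright probe sets. The table held 45101 probe sets with values from 3.13 to 15.55. By the platform annotation 34945 named 1 gene, 932 several and 9160 none, and 64 were controls. The brightest probe set that names only 1 gene stood for each of 18193 genes. No further normalisation was applied, and arrays have no read depth, so their number limits the precision.

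Differences of 1 tumour from the mean of the other 4 carry no test. Groups were compared with limma 3.58.1 in R 4.3.3 (lmFit and eBayes, Benjamini-Hochberg adjustment over all genes, threshold 0.05, no covariate). On simulated data with planted changes of 0.5, 1 and 2 on the log2 scale, 37.3%, 73.1% and 89.4% of 67, 67 and 66 changed genes were recovered and 3 other genes were called. The simulated noise was independent between genes, and the planted genes were a small part of all genes. In the real comparison 33.5% of genes were called, so these shares need not hold there. Gene order and promoters came from RefSeq (GRCm38.p6). The members, the gene lists and the tests were chosen with earlier results of these data known. Values on each array are given for the 12 members with the largest deviation of a single tumour, up to 12 members past the threshold whose groups do not overlap (by smallest adjusted p), the 4 receptor members, and the first and last member; their 5 nearest measured neighbours on either side are given by their difference. A few further members were named after their values were seen. From other gene lists up to 3 genes with the smallest adjusted p are named, with exceptions. Nqo1, Hmox1, Cxcl10, Il10ra, Socs3, Mafg and the cell markers Cd68, Clec4f, Marco, Col1a1, Reln, Lrat and Cps1 were named for their values in tumour 3. Ifnlr1 and Mcm2 were also named outside that rule. The closest pair of arrays, livers 1 and 2, differed by a root mean square of 0.311 on the log2 scale, so all arrays were kept as separate samples. Tables were made with Python 3.11.15. Alternatives changed the scaling, the choice of probe sets, the filter on dim genes, the comparator of single tumours and the replicate number as a block, or left out each array. A centring on the mean of the housekeeping genes was added after seeing the data.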

Additional observations from a re-analysis of the deposited data

Results flagged for a closer look

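Within the 5 tumours or the 4 livers, 1 array stood far from the others for 16 member and array pairs, past the 95% value of Dixon's gap criterion. Chance alone meets it in about 1 of 20 groups, but the members were chosen by how single tumours deviated, so that share does not apply to the tumour values and the gaps are a description. Tumour 3 was the highest tumour in 10 of them, with log2 values of 9.19 for Scaf4, 9.60 for Urb1, 11.38 for Synj1, 12.34 for Paxbp1, 12.98 for Il10rb, 11.97 for Ifnar1, 12.40 for Mrps6, 14.84 for Cbr1, 14.21 for Cbr3 and 11.02 for Morc3. Tumour 4 was the highest for Rwdd2b at 8.86 and tumour 2 for Tiam1 at 7.45. Among the livers, liver 3 was the highest for Setd4 at 9.71 and for Cbr1 at 11.83 and the lowest for Ifnar2 at 11.12, and liver 4 was the lowest for Il10rb at 8.24. The pattern of tumour 3 restates the values by which the genes were chosen.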

How the results depend on the processing

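Over 35 named genes and 16 alternatives, 508 of 560 values kept their direction and their side of the threshold, 23 lost the call, 28 gained one and 1 reversed, that of Cct8 at -0.09 (limma adjusted p = 0.607) when centred on the mean of the housekeeping genes. With all arrays 16 members rose and 2 fell. Centred on the median of the housekeeping genes the counts were 27 and 0, on their mean (an alternative chosen after seeing the data) 6 and 14, and on the 75th percentile 7 fell. Without probe sets of the x_at and s_at types 1 fell. Leaving out 1 array gave 10 to 21 that rose (10 without liver 1, 21 without tumour 2 or tumour 3) and 1 to 4 that fell (4 without tumour 4). The share of all genes called was taken only for all arrays as deposited and without tumour 3. The other counts have no such share beside them.

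The replicate numbers did not pair the samples: same-numbered tumours and livers had correlations between -0.13 and 0.18, and 2 of 8 samples correlated best with their own number. With the number as a replicate block 10 members rose and 1 fell, with the share of all genes not given. Cct8, Scaf4 and Itsn1 did not pass with the block (limma adjusted p = 0.0503, 0.0508 and 0.0514).

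The members' median difference from the other tumours was -0.34 in tumour 1, -0.70 in tumour 2, 1.14 in tumour 3, -0.03 in tumour 4 and -0.22 in tumour 5. Against the livers these were 0.41, 0.03, 1.65, 0.59 and 0.39, so tumours 1 and 2 changed sign and tumours 4 and 5 moved above 0. Against the median of the other tumours tumour 2 was at -0.45 and tumour 4 at 0.26, and centred on the median of the housekeeping genes tumours 1 and 4 were at -0.75 and 0.59. Leaving out 1 array gave -0.48 to 0.01 in tumour 1, -0.85 to -0.37 in tumour 2, 0.91 to 1.30 in tumour 3, -0.17 to 0.34 in tumour 4 and -0.40 to 0.01 in tumour 5, with the last value 0.01 in tumours 1 and 5 found without tumour 3. Apart from the choice of comparator and of arrays, the cause of these moves was not tested. Probe sets near the negative controls or near the top of the scale can only show part of a difference.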
